A study of Mus musculus with 4 samples.

Results

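The insulin-like growth factor (IGF) system was examined in mouse bone marrow-derived mesenchymal stem cells (mBMSCs) treated with siRNA against ZBP1, a sensor protein that binds Z-form nucleic acids. The 10 genes described are those of the ligands Igf1 and Igf2, the receptors Igf1r and Igf2r, and the binding proteins Igfbp2 to Igfbp7. They were taken by gene symbol from the 24346 rows of the expression table, and all 10 were found. Each of the 4 samples was RNA from marrow cells of mice labelled C57BL/6, given in the methods as wild-type C57BL/6J, 3 months of age, grown as an adherent culture in serum-containing DMEM and transfected by lipofection. The siScr group (2 samples) received a scrambled siRNA and the siZBP1 group (2 samples) siRNA against Zbp1, and RNA was collected 72 h later. The sources used here do not state which of the study's siRNAs against Zbp1 was sequenced, whether the cells were in osteogenic medium, or whether the replicates came from separate animals, so the p-values measure only the spread between these samples. Since the siRNA behind each siZBP1 sample is not given, an effect of lower Zbp1 and any other effect of the siRNA cannot be told apart.

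IGF1 and IGF2 are secreted growth factors that are stored in bone matrix and act on osteoblasts and their precursors. Both signal through IGF1R, a receptor tyrosine kinase that engages adaptor proteins and, through them, the PI3K-AKT and RAS-MAP kinase routes, whereas IGF2R binds IGF2 without such a kinase and carries it, together with mannose 6-phosphate-tagged enzymes, to the lysosome. Secreted binding proteins hold most IGF outside the cell, prolong its life or keep it from the receptor, and are themselves cut by proteases such as PAPP-A. In bone, IGFBP4 is known mainly as an inhibitor of IGF action, and IGFBP5 binds the matrix.

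The deposited values were FPKM, fragment numbers scaled to transcript length and library size, which puts genes of unlike length and libraries of unlike depth on a common scale. This scaling does not correct for a shift of abundant transcripts between samples. Zbp1 itself fell 6.399-fold, from 85.97 and 61.98 FPKM in the siScr samples to 11.49 and 11.63 FPKM in the siZBP1 samples (limma adjusted p = 0.00322). Read numbers were not used here. From the spacing of the lowest values, the libraries held roughly 10 to 19 M fragments, the deepest being siScr replicate 2 and the shallowest siZBP1 replicate 1. The label was only partly borne out by marker genes. The mesenchymal collagen Col1a2 stood at 1806 to 2092 FPKM in the 4 samples, but macrophage genes were abundant as well, with Lyz2 at 2814 to 5871 FPKM. The washing given in the methods was aimed at nonadherent hematopoietic cells. The 8 endothelial markers summed to 5.46 to 6.84 FPKM in each sample.

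Both IGF receptors and a pair of binding proteins, Igfbp2 and Igfbp5, fell in siZBP1 cells, by 1.59-fold to 2.69-fold in mean FPKM. No ligand and no binding protein rose past the threshold. Limma, which fits a linear model to each gene and shares the variance between genes, was run on log2(FPKM + 1) of the 11959 genes whose mean reached 1 FPKM, and its log2 fold change (log2FC) is that of siZBP1 over siScr. At an adjusted p under 0.05, 14.8% of these genes were lower and 13.5% higher in siZBP1 cells. Of the 10 IGF genes, all of which were tested, 4 were lower and 0 were higher by limma, and at an unadjusted p under 0.05 the numbers were 5 and 2, against 21.3% and 20.7% of the genes tested. By the ratio of the group means, 5 of the 10 were lower by over 1.5-fold against 9.19% of the genes tested, and 0 were higher against 4.51%. The siZBP1 samples lay entirely below the siScr samples for 6 of the 10 genes and entirely above them for 2, against 33.7% and 34.7% of the genes tested. For a single value, exact permutation of 2 and 2 samples cannot give a two-sided p below 0.333.

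**Figure D1:**
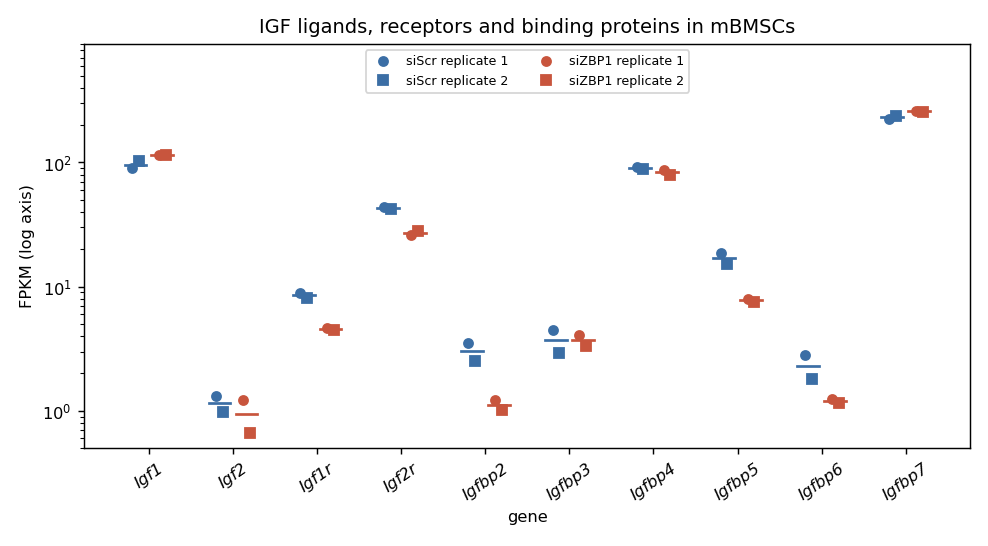
FPKM (log axis) of the 10 IGF genes in each of the 4 samples, with siScr in blue, siZBP1 in red, circles for replicate 1, squares for replicate 2 and a bar for the mean of each group. Igfbp7, Igf1 and Igfbp4 stand highest in both groups, and the red symbols lie well below the blue ones for Igf1r, Igf2r, Igfbp2 and Igfbp5.

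The levels of the 10 genes spanned from about 1 to over 200 FPKM. In siScr cells the order by mean FPKM was Igfbp7, Igf1, Igfbp4, Igf2r, Igfbp5, Igf1r, Igfbp3, Igfbp2, Igfbp6 and Igf2. In this order the ranges of the replicates overlapped between Igf1 and Igfbp4, between Igfbp3 and Igfbp2, and between Igfbp2 and Igfbp6, so that these neighbours did not differ beyond their spread. In siZBP1 cells the first 7 genes kept these places, with no overlap between neighbours among them, while Igfbp6, Igfbp2 and Igf2 at the low end overlapped one with the next. Igfbp7 lay at percentiles 97.5 to 97.9 of the genes tested in every sample, and Igf2 at percentiles 1.31 to 4.48.

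Igf1r, the signaling receptor, occupies chr7:67952827-68233668 (plus strand, GRCm38). It was at 8.95 and 8.09 FPKM in the siScr samples and at 4.63 and 4.51 FPKM in the siZBP1 samples. Both siZBP1 samples were thus far below both siScr samples, and the replicates of a group differed by 1.11-fold at most. The mean fell 1.87-fold, from 8.52 ± 0.607 to 4.57 ± 0.0813 FPKM (SD, n = 2 each; limma log2FC -0.77, SE 0.082, adjusted p = 0.00706). Igf2r, which clears IGF2 and sorts lysosomal enzymes, occupies chr17:12682406-12769664 (minus strand). Its values were 44.16 and 41.96 FPKM in the siScr samples and 26.22 and 28.04 FPKM in the siZBP1 samples, again without overlap. The means were 43.1 ± 1.55 and 27.1 ± 1.29 FPKM (SD, n = 2 each; limma log2FC -0.65, SE 0.057, adjusted p = 0.00503). Igf2r overlaps the antisense transcript Airn, which was at 2.80 to 5.49 FPKM in the 4 samples, and whether the libraries kept strand is not stated. Airn was thus far below Igf2r in every sample.

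Of the binding proteins, Igfbp5 showed the largest change on the scale of log2(FPKM + 1). It occupies chr1:72857932-72874884 (minus strand), 5457 bases from Igfbp2, its neighbour on the plus strand. Igfbp5 was at 18.63 and 15.09 FPKM in the siScr samples and at 7.998 and 7.583 FPKM in the siZBP1 samples. Both siZBP1 values were far below either siScr value. The mean fell 2.16-fold, from 16.9 ± 2.503 to 7.79 ± 0.293 FPKM (SD, n = 2 each; limma log2FC -1.02, SE 0.11, adjusted p = 0.00768). Igfbp2, a binding protein that contains a cell-attachment sequence, occupies chr1:72824503-72852474. It was at 3.52 and 2.53 FPKM in the siScr samples and at 1.23 and 1.02 FPKM in the siZBP1 samples. This was the largest fall by the ratio of the means, 2.69-fold, from 3.03 ± 0.698 to 1.12 ± 0.146 FPKM (SD, n = 2 each; limma log2FC -0.91, SE 0.16, adjusted p = 0.0208). Igfbp2 is short and weakly expressed, and roughly 63 to 66 fragments lay behind each siScr value and 16 to 22 behind each siZBP1 value. Poisson counting error alone is then 24.7% for the smallest of these.

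Igfbp6, which binds IGF2 in preference to IGF1, was at 2.83 and 1.796 FPKM in the siScr samples and at 1.26 and 1.15 FPKM in the siZBP1 samples. The groups did not overlap, but the siScr replicates differed from each other by 1.58-fold, against 1.92-fold between the group means. The difference did not pass the threshold (limma log2FC -0.57, SE 0.19, adjusted p = 0.0862). Roughly 14 to 45 fragments lay behind these values. Among the alternatives, it passed only when siScr replicate 2 was left out (limma adjusted p = 0.0334, log2FC -0.80), and without siScr replicate 1 its log2FC was -0.34.

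The remaining binding proteins differed little. Igfbp7, a widely secreted member that binds IGF weakly, was at 223.6 and 238.8 FPKM in the siScr samples and at 260.1 and 256.9 FPKM in the siZBP1 samples. Both siZBP1 values were higher, by 11.8% in the mean (limma log2FC 0.16, 95% interval 0.04 to 0.29, adjusted p = 0.0678). Igfbp7 did not pass the threshold under any alternative that kept all samples (limma adjusted p from 0.0654 to 0.136). With a sample left out its log2FC ranged from 0.11 to 0.21. Its gene overlaps the antisense gene Polr2b, at 24.7 to 28.1 FPKM in the 4 samples, far below Igfbp7. Igfbp4 was at 91.18 and 88.11 FPKM in the siScr samples and at 87.66 and 78.85 FPKM in the siZBP1 samples, so that the groups were separated by less than 1 FPKM. Its log2FC was -0.11, with a 95% interval from -0.28 to 0.06 (limma adjusted p = 0.273), and with a sample left out it ranged from -0.18 to -0.032, the latter without siZBP1 replicate 2. Igfbp3, the main carrier of IGF in the circulation, was at 4.47 and 2.91 FPKM in the siScr samples and at 4.10 and 3.34 FPKM in the siZBP1 samples. Both siZBP1 values lay between the siScr values, and the 95% interval of its log2FC ran from -0.49 to 0.54 (limma adjusted p = 0.939).

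The ligands were very unequal in level. Igf1, at chr10:87858265-87937042 (plus strand), made up 98.6% to 99.4% of the summed ligand FPKM in each sample. It was at 89.84 and 101.8 FPKM in the siScr samples and at 113.9 and 115.9 FPKM in the siZBP1 samples. Both siZBP1 samples were above both siScr samples, with a mean of 95.8 ± 8.48 against 114.9 ± 1.41 FPKM (SD, n = 2 each), a difference of 19.9%. It lay just outside the threshold (limma log2FC 0.26, 95% interval 0.08 to 0.45, adjusted p = 0.0521). With a pseudocount of 0.1 the limma adjusted p was 0.0470, with only genes reaching a mean of 5 FPKM it was 0.0476, and without siScr replicate 2 it was 0.0217. It moved the other way without the variance trend (0.0930), without siScr replicate 1 (0.0752, with a log2FC of 0.17) and without siZBP1 replicate 1 or 2 (0.211 and 0.217). Macrophages are known to express Igf1, and most macrophage markers moved in the same direction. Of the 23 tested, 15 rose by limma and 0 fell, against 13.5% and 14.8% of all genes tested. Their median log2FC was 0.37. The 8 not called were Adgre1, Ptprc, Cd14, Fcgr1, Aif1, Spi1, Ctss and Mpeg1. The list summed to 13811 and 14931 FPKM in the siScr samples against 20022 and 19204 FPKM in the siZBP1 samples. Lyz2 was the largest single part of each sum. Of the 3 most abundant markers, Lyz2 and C1qb rose (3230 to 5636 and 1138 to 1589 FPKM), and Ctss was at 2082 and 1878 FPKM (adjusted p = 0.0818). Of the markers that define these cells, Csf1r rose (468.6 to 571.1 FPKM), Adgre1 was at 291.0 and 316.4 FPKM (adjusted p = 0.165), and none was at 0. In bulk RNA, more cells of a type and more RNA per cell cannot be told apart, and the part of these cells in the Igf1 values was not tested.

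Igf2, the fetal ligand, was close to the limit of the test, at 1.32 and 0.983 FPKM in the siScr samples and at 1.22 and 0.665 FPKM in the siZBP1 samples. The groups overlapped, and the 95% interval of the log2FC, from -0.68 to 0.37, included falls and rises (limma adjusted p = 0.601). Roughly 52 to 89 fragments lay behind each value, and no difference was detectable at this depth. Its antisense transcript Igf2os was at 0.0407 FPKM at most. The annotation also places Mir483, listed at 0 in all samples, inside the gene.

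**Figure D2:**
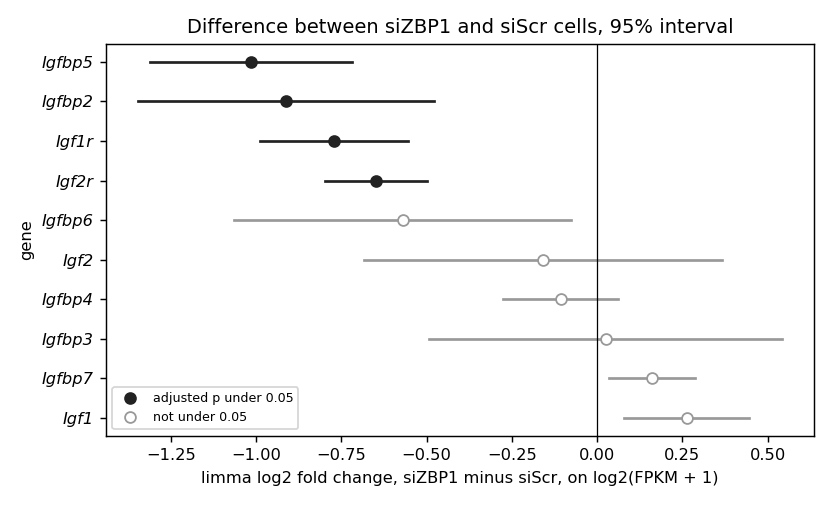
Limma log2FC (siZBP1 minus siScr, on the scale of log2(FPKM + 1)) of the 10 IGF genes with 95% intervals. Filled symbols mark the 4 genes with an adjusted p under 0.05, from -1.02 for Igfbp5 to -0.65 for Igf2r, and open symbols the 6 others.

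The 4 calls held under every alternative that used all samples and in which the gene was tested. They were lost without either siZBP1 replicate, as were most calls over all genes. With any 1 sample left out the log2FC ranged from -0.84 to -0.71 for Igf1r and from -0.69 to -0.60 for Igf2r. It ranged from -1.09 to -0.74 for Igfbp2 and from -1.16 to -0.87 for Igfbp5. Without siZBP1 replicate 1 the limma adjusted p was 0.0817 for Igf1r, 0.0686 for Igf2r, 0.114 for Igfbp2 and 0.0843 for Igfbp5, and without siZBP1 replicate 2 it was 0.0726, 0.0572, 0.118 and 0.0776. Without siScr replicate 1, Igfbp2 alone of the 4 missed the threshold (limma adjusted p = 0.0575). The direction was the same in each case. Zbp1 itself missed the threshold without siZBP1 replicate 1 or 2 (limma adjusted p = 0.0618 and 0.0510).

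Since FPKM values are scaled to length, levels could be summed over genes. The 6 binding proteins summed to 344 and 349 FPKM in the siScr samples and to 362 and 349 FPKM in the siZBP1 samples, with overlap between the groups (exact permutation p = 0.667, two-sided). The shares of single binding proteins in this sum are tied to one another, as a higher share of any gene lowers the rest. Igfbp7 held 65.0% and 68.4% of the summed FPKM in the siScr samples and 71.8% and 73.6% in the siZBP1 samples. The share of Igfbp5 was 5.41% and 4.32% in the siScr samples against 2.21% and 2.17% in the siZBP1 samples, and that of Igfbp4 was 26.5% and 25.2% against 24.2% and 22.6%. Each of these shares was separate between the groups, for which the exact permutation p is 0.333, the smallest this design allows. The sum of the ligands was 91.2 and 103 FPKM in the siScr samples and 115 and 117 FPKM in the siZBP1 samples. Per unit of ligand, binding protein FPKM was 3.78 and 3.40 in the siScr samples and 3.15 and 2.99 in the siZBP1 samples (exact permutation p = 0.333, two-sided). The ratio of Igf1 to Igf1r FPKM was 10.03 and 12.6 in the siScr samples and 24.6 and 25.7 in the siZBP1 samples, a 2.23-fold difference that came mostly from the lower Igf1r. The transcript ratios say nothing of the amounts of protein.

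**Figure D3:**
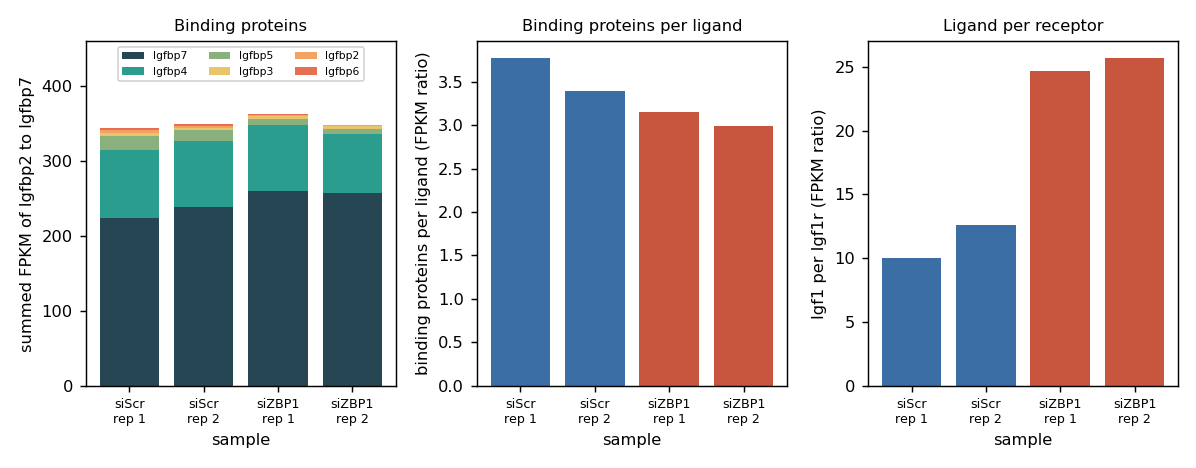
Left, summed FPKM of Igfbp2 to Igfbp7 in each sample, stacked by gene; middle, that sum divided by the summed FPKM of Igf1 and Igf2; right, the ratio of Igf1 to Igf1r FPKM. The binding protein sum stays between 344 and 362 FPKM, while the ratio of Igf1 to Igf1r is near 25 in siZBP1 samples and at 10.03 and 12.6 in siScr samples.

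The promoters of the 4 genes that fell are shown because these genes moved together. RefSeq windows on GRCm38.p6 were at hand for all 10 genes, 14 windows in all, and the 250 bases before each start site were searched on both strands for a GC box (GGGCGG), an E-box (CACGTG), TCF/LEF motifs, through which β-catenin acts (CTTTGAA, likewise the form CTTTGAT, likewise the form CTTTGTA and likewise the form CTTTGTT), a RUNX motif (TGTGGT) and a FoxO motif (GTAAACA), and on the coding strand for a TATA box (TATAAA). The 100 bases before the start site follow for each gene, 5′ to 3′ on the coding strand, with matches in capitals. They lie at chr7:67952157-67952256 (plus strand, Igf1r), chr17:12769707-12769806 (minus strand, Igf2r), chr1:72824380-72824479 (plus strand, Igfbp2, the first of its 2 windows) and chr1:72874866-72874965 (minus strand, Igfbp5). The RefSeq start sites can lie away from the ends of the genes given above, which are those of GENCODE.
Igf1r: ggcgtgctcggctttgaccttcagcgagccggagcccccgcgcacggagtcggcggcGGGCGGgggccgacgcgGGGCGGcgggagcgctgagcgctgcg
Igf2r: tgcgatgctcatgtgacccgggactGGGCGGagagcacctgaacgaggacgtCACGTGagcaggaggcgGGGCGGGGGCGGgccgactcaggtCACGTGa
Igfbp2: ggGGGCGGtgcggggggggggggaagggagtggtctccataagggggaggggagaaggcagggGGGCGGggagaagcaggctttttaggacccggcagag
Igfbp5: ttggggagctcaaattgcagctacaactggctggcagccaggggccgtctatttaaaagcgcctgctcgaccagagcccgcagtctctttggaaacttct

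The stretch of Igf1r held 2 GC boxes, that of Igf2r 3 GC boxes and 2 E-boxes, that of Igfbp2 2 GC boxes, and that of Igfbp5 no match. G and C made up 77.6% of the 250 bases for Igf1r, 69.2% for Igf2r, 67.2% for this window of Igfbp2 and 58.8% for Igfbp5, against a median of 52.4% over 32851 promoter windows. The second window of Igfbp2 was at 56.4%. Some IGF genes that were not called had like shares, with 74.0% for Igfbp7, 73.2% for Igfbp3 and 69.2% for Igfbp4. Others did not, with 52.8% for Igf1, 49.6% for Igfbp6 and 47.6% to 68.8% for the windows of Igf2. GC boxes were found in 6 of the 14 windows and in 32.7% of all windows. Those 6 were the windows of Igf1r, Igf2r and Igfbp7, the first of Igfbp2 and part of those of Igf2. The window of Igfbp7, which was not called, held the most, with 4 matches, and the second of Igfbp2 held 0. A TCF/LEF motif was found in 1 of the 14 windows, that of Igf1, and in 14.8% of all windows. It is shown at chr10:87860911-87861010, positions -200 to -101 from the start site on the plus strand, with the 2 matches in capitals.
Igf1: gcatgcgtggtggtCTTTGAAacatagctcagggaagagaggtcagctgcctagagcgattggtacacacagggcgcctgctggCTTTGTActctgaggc

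The E-box was found in 2 of the 14 windows (6.02% of all windows), the TATA box in 1 (7.59%), the RUNX motif in 1 (14.0%) and the FoxO motif in 0 (3.17%). The windows with an E-box were those of Igf2r and Igfbp2, the TATA box was that of Igfbp4 and the RUNX motif that of Igfbp3. These are matches of letters in a short window and do not show binding.

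The rest of the pathway was described with lists written with earlier results of these data in view. Over all of them, 97 of 116 genes were tested, of which 20 were lower and 13 higher by limma. These are shares of 20.6% and 13.4% against 14.8% and 13.5% of all genes tested, and the median log2FC was -0.01 against 0.00. The counts of the single lists below cover few genes each and stand beside the same 14.8% and 13.5%. With a sample left out, 1 to 22 of the list genes were lower and 0 to 8 higher, the lowest counts coming without a siZBP1 replicate. Without siScr replicate 1 or 2 the higher genes numbered 5 and 8, and without the variance trend 9. Of the named genes below, the calls of Pik3r3 and Ghr were also lost without siScr replicate 1 (limma adjusted p = 0.0553 and 0.0522) and that of Sesn3 without siScr replicate 2 (0.0532).

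Among proteins that set how much IGF is free, of the 4 genes tested of 8, 3 rose and 0 fell, with a median log2FC of 0.62. Adam12, a metalloproteinase that cuts IGFBP3 and IGFBP5, rose from 4.29 and 4.63 FPKM to 13.55 and 13.50 FPKM (limma log2FC 1.41, adjusted p = 0.00242). Htra1, a secreted serine protease that cuts IGFBP5, rose from 55.49 and 57.97 to 120.5 and 105.5 FPKM (0.98, adjusted p = 0.00413). Pappa, which encodes the IGFBP4 protease PAPP-A, rose from a mean of 36.1 to 43.6 FPKM (adjusted p = 0.0182). Pappa2, an IGFBP5 protease, was under the filter, at 0.351 and 0.675 FPKM in the siScr samples and at 0.0897 and 0.0621 FPKM in the siZBP1 samples, lower without overlap. Adam28, under the filter as well, was at 0.154 to 0.175 FPKM in the 4 samples. Whether cleavage of any binding protein changed was not measured. Stc2, an inhibitor of PAPP-A, was at 1.94 and 1.47 FPKM in the siScr samples and at 0.749 and 0.887 FPKM in the siZBP1 samples (adjusted p = 0.0513). The carrier subunit Igfals was listed at 0 in both siZBP1 samples and at 0.159 FPKM at most in siScr samples.

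Of the other secreted proteins with an IGFBP domain, those tested were lower. All 5 genes tested of 10, which are the CCN family genes Ctgf, Cyr61, Nov, Wisp1 and Wisp2, were lower by limma, with a median log2FC of -0.94. Wisp2 fell from 146.8 and 126.1 to 40.19 and 40.49 FPKM (log2FC -1.73, adjusted p = 0.00231). Ctgf, a matrix-associated growth factor, fell from 322.9 and 361.0 to 119.1 and 132.4 FPKM (-1.44, adjusted p = 0.00277). These proteins are not regarded as high-affinity IGF carriers. Igfbp1, the liver-derived binding protein, was listed at 0 in all samples.

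Among the insulin receptor genes and the proteins that act at the receptor, 4 of 14 tested were lower and 0 higher. Grb14, an adaptor that restrains the insulin receptor, fell from 21.67 and 14.56 to 8.34 and 8.09 FPKM (log2FC -1.03, adjusted p = 0.0216). Grb10, an imprinted adaptor that restrains both IGF1R and the insulin receptor, fell from 60.43 and 50.88 to 26.70 and 31.33 FPKM (-0.92, adjusted p = 0.00986). The other falls were those of Shc1 and Nedd4. Insr, the closest relative of Igf1r, was at 5.84 FPKM in siScr and 6.77 FPKM in siZBP1 cells (adjusted p = 0.133), and the main substrate Irs1 at 20.1 and 19.04 FPKM (adjusted p = 0.760).

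Downstream of the receptor, of 27 genes of the PI3K, AKT, mTOR and FoxO list, 2 were lower and 1 higher, with a median log2FC of -0.01. The lower ones were Eif4ebp1, a translation repressor controlled by mTOR, which fell from 85.22 and 66.62 to 28.20 and 28.92 FPKM (-1.37, adjusted p = 0.00520), and Inppl1, and the higher one was Pik3r3 (0.33, adjusted p = 0.0170). Of 14 genes of the RAS and MAP kinase list, Nras fell from 36.26 and 36.79 to 21.71 and 23.68 FPKM (-0.66, adjusted p = 0.00503), and Map2k1 and Mapk3 rose by less than 1.2-fold in the mean, Mapk3 with a log2FC of 0.22. The call of Mapk3 was lost without the variance trend (limma adjusted p = 0.0682) and with any 1 sample left out (0.0579 to 0.178). The list's median log2FC was -0.01. Of 14 tested genes known as FoxO targets, 4 rose and 1 fell, with a median log2FC of 0.17. The highest rise was that of Sesn3, from 12.06 and 9.75 to 16.84 and 15.48 FPKM (0.53, adjusted p = 0.0310), whereas Pdk4, a mitochondrial kinase that restrains glucose oxidation, fell 5.46-fold, from 44.99 and 39.84 to 7.94 and 7.58 FPKM (-2.31, adjusted p = 0.00152).

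Imprinted growth genes, the class to which Igf2 and Igf2r belong, were lower in 3 of 6 tested cases and higher in 0, with a median log2FC of -0.69. Plagl1, a transcription factor known to act on Igf2 and H19, fell from 2.49 and 1.72 to 0.331 and 0.320 FPKM (-1.22, adjusted p = 0.0122), and Mest fell from 2.19 and 2.41 to 0.568 and 0.407 FPKM (-1.15, adjusted p = 0.00867). Grb10, given above, was the third. H19, the noncoding neighbour of Igf2, was under the filter, at 1.81 and 1.22 FPKM in the siScr samples and at 0.0644 and 0.1597 FPKM in the siZBP1 samples. For Igf2bp2, the only mRNA-binding protein of its list of 3 to be tested, the log2FC was -0.47 (adjusted p = 0.0679).

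Of 8 genes upstream of Igf1, hormone receptors and regulators, 3 fell and 1 rose, against 14.8% and 13.5% of all genes tested. Their median log2FC was -0.28. Pth1r, the parathyroid hormone receptor of osteoblasts, fell from 48.40 and 35.13 to 10.26 and 11.05 FPKM (-1.86, adjusted p = 0.00485), and Ghr, the growth hormone receptor, from 12.58 and 10.69 to 4.44 and 5.64 FPKM (-1.07, adjusted p = 0.00986). Socs2 was the other gene that fell, and Cebpb rose. In mannose 6-phosphate sorting, where IGF2R acts, 2 of 7 genes fell and 2 rose, against the same shares of 14.8% and 13.5%. Their median log2FC was 0.12. The falls were those of Nagpa, which uncovers the mannose 6-phosphate tag (-0.76, adjusted p = 0.00427), and Gga2, an adaptor for the receptor's tail (-0.71, adjusted p = 0.00398). M6pr, the other mannose 6-phosphate receptor, rose from 129.3 to 153.7 FPKM (adjusted p = 0.0190), the opposite direction to Igf2r, and Gnptab, which makes the tag, rose from 26.8 to 31.5 FPKM (adjusted p = 0.0283).

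**Figure D4:**
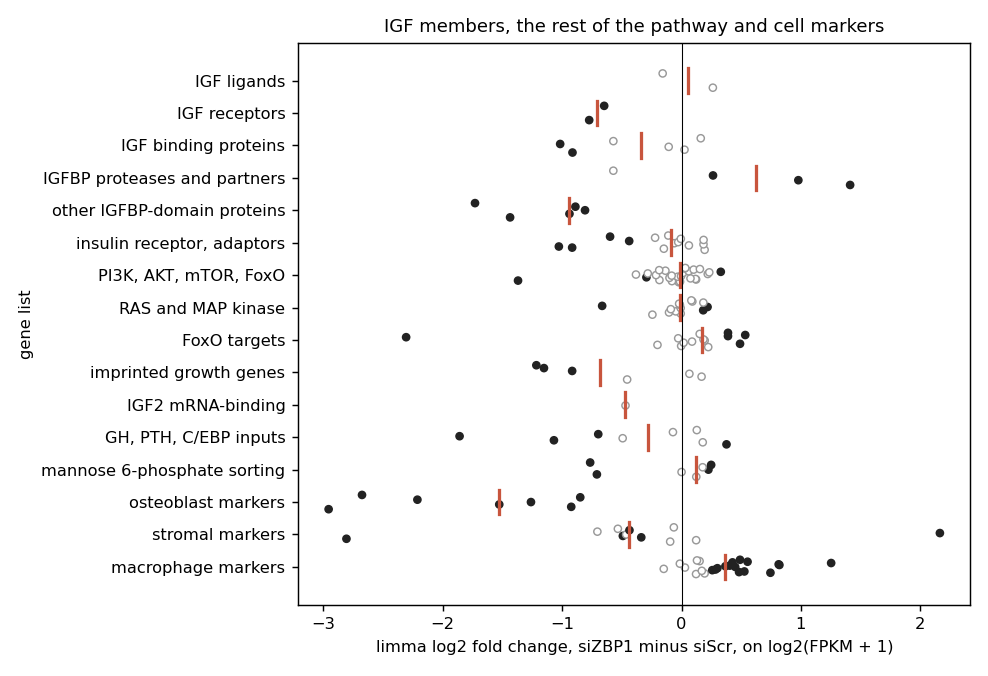
Limma log2FC values (siZBP1 minus siScr) of the tested genes of each list, with filled symbols for an adjusted p under 0.05, open symbols for the rest and a red line at the median of the list. The PI3K and MAP kinase lists centre on 0, and the median of the IGFBP-domain list is -0.94. The medians of the osteoblast and macrophage markers lie to the left and to the right of 0.

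Cell markers differed between the groups as well. All 7 tested osteoblast markers of 10 fell, with a median log2FC of -1.53 and a sum of 3484 and 2860 FPKM in the siScr samples against 1195 and 1253 FPKM in the siZBP1 samples. The osteoblast markers Dmp1, Phex and Ifitm5 were under the filter. Of the 11 stromal markers tested, 4 fell and 1 rose, with a median log2FC of -0.44. Cxcl12 fell from a mean of 61.5 to 7.89 FPKM, and Nt5e rose from 4.11 to 21.0 FPKM. The list summed to 2809 and 2340 FPKM in the siScr samples against 2354 and 2324 FPKM in the siZBP1 samples. These sums overlapped, but most of each was Col1a2, at 1806 to 2092 FPKM, so that they say little of the other markers. The falls of Igf1r, Igf2r, Igfbp2 and Igfbp5, of 1.59-fold to 2.69-fold, were of the order of those of Runx2 (1.93-fold) and Col1a1 (2.41-fold). They were smaller than those of the other tested osteoblast markers. These were Bglap (3.26-fold), Bglap2 (4.17-fold), Ibsp (4.79-fold), Sp7 (8.05-fold) and Alpl (8.22-fold). The part that a lower share of osteoblastic cells or a higher share of macrophages has in the IGF values was not tested.

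By the Euclidean distance of log2(FPKM + 1), centred per gene over the 4 samples, the genes nearest to Igfbp5, whose fall was the largest of the IGF genes on that scale, were Ddit3 (0.042), Lamb2 (0.048) and Lmna (0.053). Ddit3, a stress-response transcription factor, was at 77.70 and 61.35 FPKM in the siScr samples and at 34.01 and 33.21 FPKM in the siZBP1 samples. This likeness is over 4 samples only.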

How the data were processed

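RNA-seq of 4 mBMSC samples (2 siScr, 2 siZBP1) was used. The authors prepared TruSeq libraries, mapped reads with Tophat and deposited FPKM per gene. The methods name HTSeq and the submitters' processing notes TopHat and Cufflinks, with mm10. The annotation and filters are not given in the sources used here. The authors' columns of group means were not used.

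Values were transformed as log2(FPKM + 1), which understates changes of low genes. Genes whose mean reached 1 FPKM were fitted with limma 3.58.1 (R 4.3.3), letting the variance follow the level, and p-values were adjusted over all of them by Benjamini-Hochberg at 0.05. Sums, shares and ratios were compared by exact permutation. Fragment numbers were estimated from the spacing of low values and GENCODE M21 lengths, are rough, and cover counting error only. Promoters came from RefSeq.

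The members and lists were chosen with earlier results of these data known. Besides the IGF genes, Zbp1 and markers, the text names called pathway genes by size of change and the 3 genes nearest to the IGF gene with the largest fall in log2(FPKM + 1), Igfbp5; Pappa, Pappa2, Adam28, Stc2, Igfals, Insr, Irs1, M6pr, Gnptab, H19, Igf2bp2 and genes named within counts were added after their values were seen. Alternatives varied the pseudocount, filter, scaling, trend, replicate block and samples left out.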

Additional observations from a re-analysis of the deposited data

How the results depend on the processing

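Among the 10 IGF genes, 83 values under alternatives with all samples kept their direction and their side of the threshold. The 3 others were those of Igf1, which made the count of higher genes 1 in place of 0 with a pseudocount of 0.1, with a minimum mean of 5 FPKM and with the replicate block. The replicate numbers did not pair the samples by the deviations of same-numbered replicates (correlation -0.063 across 11959 genes), and the replicate block left 4 IGF genes lower, as without it, with 3 lower at the minimum mean of 5 FPKM, where Igfbp2 is not tested. With a sample left out, the count of lower IGF genes ranged from 0 to 5 and that of higher ones from 0 to 2, both values of 0 lower arising without a siZBP1 replicate. Over all genes, 48 to 1467 were then lower (1766 with all samples) and 22 to 1248 higher (1618); over the pathway lists, 1 to 22 were lower (20) and 0 to 8 higher (13). A sample left alone in its group is assumed to vary like the other group, and fewer samples are part of these settings. The log2 fold change of Igf2 ranged from -0.27 to 0.049, changing sign without siZBP1 replicate 2, and that of Igfbp3 from -0.22 to 0.27, changing sign without siScr replicate 2 and, at -0.09, without siZBP1 replicate 1, none past the threshold. Igf2 was under the filter without siScr replicate 1 or siZBP1 replicate 1, and Igf2, Igfbp2, Igfbp3 and Igfbp6 were under the higher filter. The difference in the share of Igfbp3 in the binding protein sum ranged from -0.25 to 0.21 percentage points with a sample left out. The number of IGF genes lower by over 1.5-fold was 4 to 6 with a sample left out. Depth limits Igf2, Igfbp2 and Igfbp6 most.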
